A study of Rattus norvegicus with 16 samples.

Results

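The genes described here are those of the rat major histocompatibility complex (MHC), called RT1, and of antigen presentation. They were chosen by symbol: every gene whose rat symbol begins with RT1-, together with B2m, Tap1, Tap2, Tapbp, Cd74, Ciita, Psmb8 and Psmb9. This gave 46 genes on 55 probes, out of 15168 named genes on the array. Of these, 30 genes (37 probes) were class I genes, B2m included, 11 genes (13 probes) were class II genes, Cd74 and Ciita included, and 5 genes (5 probes) act in peptide processing and loading.

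Class I molecules pair a heavy chain with beta-2-microglobulin and show peptides from inside the cell to CD8+ T cells; nearly every nucleated cell makes them. Their peptides are cut by the proteasome, carried into the endoplasmic reticulum by the TAP transporter and loaded with the help of tapasin. Class II molecules are alpha and beta chain pairs that show peptides from endocytosed protein to CD4+ T cells, and they are made mainly by dendritic cells, macrophages and B cells, all of which live in fat.

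Expression was measured in epididymal white adipose tissue, the visceral fat pad beside the testis, from 16 male rat offspring that fed freely and were killed at the age of 30 days. The dams of all 16 ate a high-fat diet through pregnancy and lactation, and the offspring were kept on the same diet until they were killed. In the HF group (8 animals) the dams were given only low-fat condensed milk as vehicle, and in the HFT group (8 animals) they took 25 mg per kg body weight of grape seed procyanidin extract (GSPE) in that milk. The labels give neither a strain nor the dam of each animal, so p-values treat any littermates as independent.

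Each animal's RNA was read on its own 1-colour Agilent array. A level is the log2 of a probe's background-subtracted intensity minus the 75th percentile of its array, so 0 marks that percentile and 1 unit is a doubling; levels are set side by side only within a probe. The 75th percentile signal ran from 753 to 1366, 68.3% to 73.5% of probes lay well above background, and the number of arrays limits the precision. The arrays filled 4 slides, with HF always on positions 1 and 2 of a slide and HFT on 3 and 4, and position and group therefore cannot be told apart. All 7 adipocyte markers with a probe were well above background on all 16 arrays, with Adipoq at 6.31 to 7.23 and Fabp4 at 6.23 to 7.38. Some fat pads stood apart. Lcn5, a lipocalin of the epididymal epithelium, was at 4.12 in HF 8, 4.12 in HFT 28 and 3.42 in HFT 23. In the other animals it was at -6.23 to -2.71. Lcn5 is 1 gene of a list of 10 epididymal genes, whose median marked 0 arrays as high. Adam7, the other of the 2 kept genes of that list, was not high in these animals (-3.18, -2.98 and -3.62). Lcn6, well above background on only 3 arrays, was highest in them. The urothelial list was high in HF 35, HFT 22 and HFT 24. Animals are named by group and label number.

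The promoters of these genes are shown first because shared control elements are a classic feature of the family. RefSeq (build GRCr8) gave a promoter window for 40 of the 46 genes, from 250 bases before to 50 after the annotated start: 26 class I, 9 class II and all 5 processing and loading genes. The windows were searched on both strands for the X box core GNNACNGAT, the CCAAT box (the Y box of class II promoters), the interferon response core GAAANNGAA and the kappa B site GGGANTCCC. No motif overlapped another in the sequences printed. As background, the X box binds the RFX complex and the Y box NF-Y, onto which Ciita (class II) or Nlrc5 (class I) is recruited.

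The 250 bases before the start are printed for the class II genes with an X box core, for 3 class I heavy chain genes on which single animals stood apart below, and for B2m and Tap1 as bearers of the interferon response core. Letters run 5′ to 3′ on the gene's strand, and capitals mark every match to any of the 4 motifs.
RT1-Da (chr20:4515165-4515414, plus strand): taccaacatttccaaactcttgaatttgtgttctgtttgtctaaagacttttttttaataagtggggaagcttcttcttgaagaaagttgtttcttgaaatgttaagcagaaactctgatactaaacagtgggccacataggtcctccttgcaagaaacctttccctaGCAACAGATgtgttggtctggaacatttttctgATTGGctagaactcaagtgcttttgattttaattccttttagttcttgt
RT1-Db1 (chr20:4560163-4560412, minus strand): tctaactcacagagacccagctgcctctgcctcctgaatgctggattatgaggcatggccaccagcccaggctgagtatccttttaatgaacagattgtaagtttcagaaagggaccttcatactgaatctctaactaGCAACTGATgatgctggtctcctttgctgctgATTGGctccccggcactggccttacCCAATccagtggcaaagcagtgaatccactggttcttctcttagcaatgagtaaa
RT1-Bb (chr20:4604119-4604368, minus strand): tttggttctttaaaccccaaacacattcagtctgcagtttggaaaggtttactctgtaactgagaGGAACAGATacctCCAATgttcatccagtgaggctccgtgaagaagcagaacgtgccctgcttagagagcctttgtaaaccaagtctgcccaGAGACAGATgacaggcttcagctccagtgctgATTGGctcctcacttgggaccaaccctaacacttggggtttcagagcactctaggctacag
RT1-DMa (chr20:4712336-4712585, minus strand): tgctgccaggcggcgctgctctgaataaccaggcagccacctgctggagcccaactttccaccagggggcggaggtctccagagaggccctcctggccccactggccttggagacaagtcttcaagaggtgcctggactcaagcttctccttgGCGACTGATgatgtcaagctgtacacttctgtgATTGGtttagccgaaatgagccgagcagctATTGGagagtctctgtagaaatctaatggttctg
RT1-DOb (chr20:4627524-4627773, minus strand): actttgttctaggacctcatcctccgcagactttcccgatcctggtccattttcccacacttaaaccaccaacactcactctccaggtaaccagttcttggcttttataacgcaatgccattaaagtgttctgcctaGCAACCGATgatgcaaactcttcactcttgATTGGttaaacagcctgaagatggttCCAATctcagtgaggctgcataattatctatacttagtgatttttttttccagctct
RT1-A1 (chr20:4906959-4907208, plus strand): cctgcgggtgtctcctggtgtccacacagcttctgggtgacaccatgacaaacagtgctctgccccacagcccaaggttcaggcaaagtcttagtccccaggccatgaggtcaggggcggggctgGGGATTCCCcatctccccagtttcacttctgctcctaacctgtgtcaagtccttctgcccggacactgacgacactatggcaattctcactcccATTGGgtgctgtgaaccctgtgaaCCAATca
RT1-CE16 (chr20:3265444-3265693, minus strand): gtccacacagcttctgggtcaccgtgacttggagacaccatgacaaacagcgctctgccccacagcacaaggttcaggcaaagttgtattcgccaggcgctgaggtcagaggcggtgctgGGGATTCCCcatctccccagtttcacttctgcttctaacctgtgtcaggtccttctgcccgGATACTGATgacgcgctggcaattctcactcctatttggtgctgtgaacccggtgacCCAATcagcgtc
RT1-CE3 (chr20:3525159-3525408, minus strand): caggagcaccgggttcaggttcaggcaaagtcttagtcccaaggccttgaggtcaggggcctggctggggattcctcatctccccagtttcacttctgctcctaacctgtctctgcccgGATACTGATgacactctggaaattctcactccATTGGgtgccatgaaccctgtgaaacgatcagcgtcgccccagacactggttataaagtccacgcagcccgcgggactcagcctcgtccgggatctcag
B2m (chr3:129549080-129549329, plus strand): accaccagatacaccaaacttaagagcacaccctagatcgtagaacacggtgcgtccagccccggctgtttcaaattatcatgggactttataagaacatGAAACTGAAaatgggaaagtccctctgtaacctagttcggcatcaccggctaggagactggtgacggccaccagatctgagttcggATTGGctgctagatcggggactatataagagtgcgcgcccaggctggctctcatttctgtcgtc
Tap1 (chr20:4668544-4668793, minus strand): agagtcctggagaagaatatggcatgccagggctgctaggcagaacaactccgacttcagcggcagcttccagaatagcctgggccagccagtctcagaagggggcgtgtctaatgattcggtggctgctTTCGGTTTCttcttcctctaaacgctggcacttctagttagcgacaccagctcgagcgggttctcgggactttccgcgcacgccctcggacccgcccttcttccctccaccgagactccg

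The X box core was in 5 of 9 class II windows (RT1-Da, RT1-Db1, RT1-Bb, RT1-DMa and RT1-DOb), in 8 of 26 class I windows and in 0 of 5 processing windows, against 7.83% of all 33469 promoter windows. In all 5 class II genes an inverted CCAAT box followed the X box core after 21 to 24 bases. That spacing, measured on these genes first, was found in 30 of the 33469 windows (0.0896%). Of those 30, 9 belonged to the genes described here: the 5 class II genes and the class I genes RT1-M3-1, RT1-CE10, RT1-CE5 and RT1-CE3. The CCAAT box alone was common, in 9 of 9 class II and 18 of 26 class I windows against 37.5% of all windows.

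The kappa B site was in 7 of 26 class I windows (RT1-A1, RT1-A2, RT1-CE4, RT1-CE10, RT1-CE11, RT1-CE13 and RT1-CE16), in no class II window, and in 228 (0.681%) of all windows. The interferon response core was in 4 of 5 processing windows (Tap1, Tap2, Tapbp and Psmb8) and in 4 class I windows, B2m among them, against 9.71% of all. Tap1 and Psmb9 are divergent neighbours whose windows overlap by 44 bases. A match is a description of letters and not of a bound site, and the windows come from the reference rat, not from these animals.

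**Figure D1:**
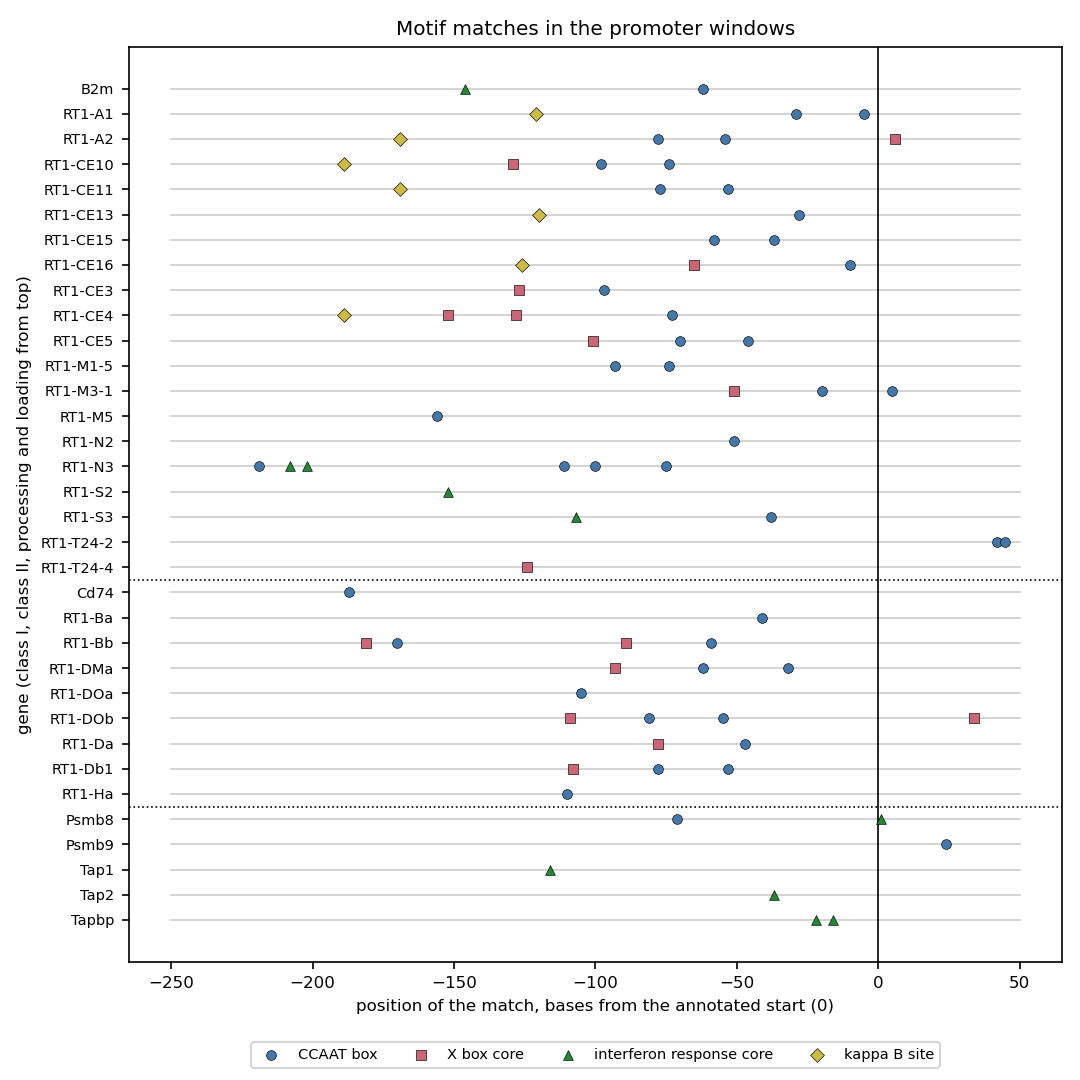
Position of each motif match, in bases from the annotated start (0), in the promoter windows that held at least 1 match; each row is a gene, and symbols give the motif. In 5 class II genes and 4 class I genes an X box core (square) is followed 21 to 24 bases on by a CCAAT box (circle).

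Of the 55 probes, 43 probes of 36 genes passed the filter on low signal (marked well above background by the scanner's software in 4 or more of a group's 8 arrays): 28 of 37 class I, 10 of 13 class II and 5 of 5 processing probes. The 12 probes that did not pass read RT1-Ba, RT1-Ha and RT1-DOa of class II and RT1-M1-2, RT1-M1-4, RT1-M1-5 (both probes), RT1-M2, RT1-M4, RT1-M5, RT1-T24-2 and 1 of the RT1-M6-1 probes of class I. Of these 12, 7 were well above background on no array. RT1-Ba encodes the alpha chain that pairs with RT1-Bb, and its probe was among those 7 although both RT1-Bb probes were kept.

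No probe passed the test of HFT against HF. Limma with Benjamini-Hochberg adjustment called 0 of 21808 probes (0.0%) at an adjusted p under 0.05, with every adjusted p at 1, and 515 probes (2.36%) were at an unadjusted p under 0.05. Of the 43 member probes, 0 were called and 0 were at an unadjusted p under 0.05. No kept probe on the array had HF and HFT levels that did not overlap (0.0%). The data below therefore describe levels and how they varied between animals, with the group difference given for each class.

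**Figure D2:**
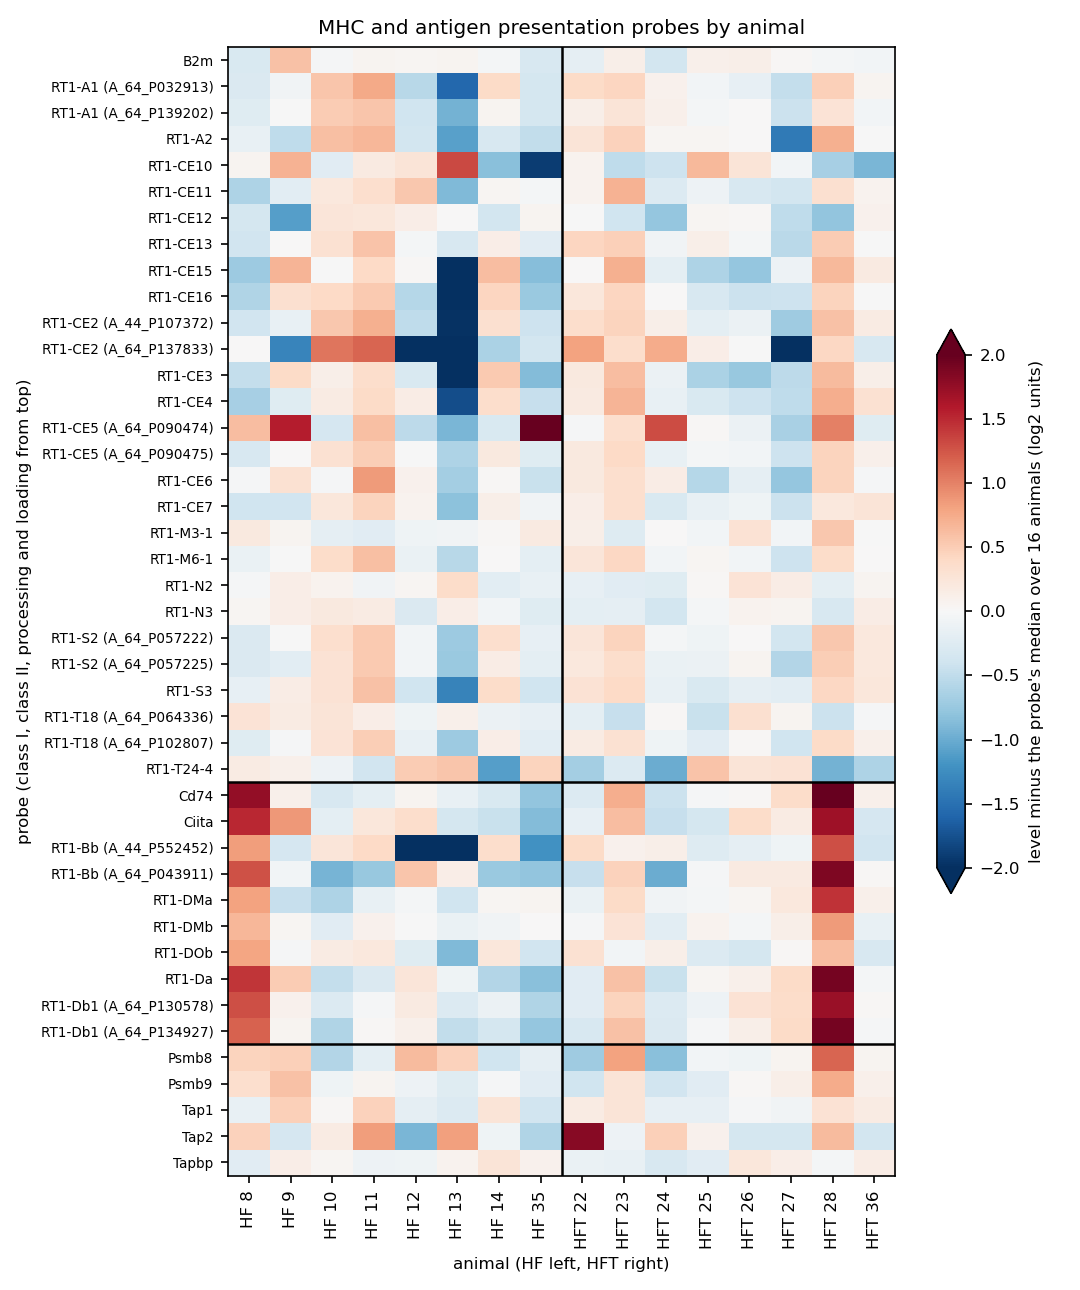
Level of each of the 43 kept probes in each animal, as the difference from that probe's median over the 16 animals (log2 units, colours saturate at 2 and -2); rows are probes by class, columns animals. HF 8 and HFT 28 are high across the class II rows, and HF 13 is low on many class I rows.

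The classes differed in how much animals varied. The SD over the 16 animals had a median of 0.70 for class II probes, 0.41 for class I and 0.32 for processing and loading, against 0.26 over all kept probes. All 10 class II probes and 23 of 28 class I probes varied more than the median probe, as did 3 of 5 processing probes. Among the most variable 10% of all kept probes were 6 class II, 7 class I and 1 processing probe.

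Class I began with the light chain. B2m, beta-2-microglobulin, ran in HF from 4.10 through a median of 4.43 to 5.01 and in HFT from 4.05 through 4.42 to 4.54. HF 9 was the highest animal and the groups overlapped, with a difference (HFT minus HF) of -0.04 (SE 0.12, n = 8 and 8). Its SD over the 16 animals, 0.23, was below that of the median probe.

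The classical class I heavy chains varied more. RT1-A1 (probe A_64_P139202) ran in HF from 4.07 through 4.89 to 5.56 and in HFT from 4.58 through 5.07 to 5.29. HF 13 was the lowest animal and HF 11 and HF 10 the highest, so the HF range held all of the HFT values. The difference was 0.13 (SE 0.18). RT1-A2 ran in HF from 1.42 through 2.15 to 3.16 and in HFT from 1.08 through 2.55 to 3.21. Here HFT 27 was lowest, HF 13 next, and the difference was 0.22 (SE 0.29).

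The RT1-CE genes are a cluster of class I heavy chain copies, and several are near-identical, so a probe's signal may hold RNA of more than 1 copy; this holds for all class I heavy chain probes and was not tested. RT1-CE16 ran in HF from 0.28 through 2.53 to 3.18 and in HFT from 2.23 through 2.65 to 3.09. RT1-CE3 ran in HF from -4.36 through -1.36 to -0.74 and in HFT from -2.03 through -1.27 to -0.64. RT1-CE15 ran in HF from -5.75 through -3.01 to -2.34 and in HFT from -3.80 through -3.07 to -2.31. On all 3 the lowest value was that of 1 animal, HF 13, and the other 7 HF animals spanned much the same levels as HFT.

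RT1-CE2 had 2 probes that moved together (r = 0.82 over 16 animals) but with different low animals. On A_44_P107372 HF ran from 1.42 through 3.13 to 4.10 and HFT from 2.68 through 3.54 to 3.98. On A_64_P137833 HF ran from -2.21 through 0.11 to 1.78 and HFT from -1.66 through 0.85 to 1.42. HF 13 alone was far down on the first, whereas HF 13 (-2.21), HF 12 (-1.97) and HFT 27 (-1.66) were all down on the second, with HF 9 next at -0.70. Probe A_64_P137833 had the highest class I difference, 0.66 (SE 0.59, 95% interval -0.59 to 1.92).

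RT1-CE4 had means of -0.32 ± 0.72 in HF and 0.01 ± 0.49 in HFT (SD, n = 8 each, as for all means that follow). RT1-CE7 had means of 1.91 ± 0.41 and 2.01 ± 0.28, and RT1-CE11 of -0.48 ± 0.48 and -0.39 ± 0.36. None of these differences was larger than the SD of either group. RT1-CE13 had means of 0.27 ± 0.33 and 0.38 ± 0.35. RT1-CE6 had means of -5.56 ± 0.46 and -5.63 ± 0.43, and RT1-CE12 of -0.52 ± 0.45 and -0.66 ± 0.37. The groups overlapped on these too. RT1-CE5 was read by 2 probes that did not vary together (r = 0.07 over 16 animals). Probe A_64_P090475 had means of 2.48 ± 0.36 and 2.57 ± 0.29. Probe A_64_P090474 was at -1.56 in HF 35 and at -5.47 to -2.99 in the other 15 animals.

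RT1-CE10 ran the other way. It was at -0.42 in HF 13, the highest animal, and at -3.63 in HF 35, the lowest, with means of -1.80 ± 0.97 and -1.93 ± 0.52. RT1-T24-4, a class I gene of the RT1-T group, was likewise high in HF 13 (1.76), with HFT 25 at 1.77 and HF 14 lowest at 0.11. Its means were 1.23 ± 0.56 and 0.90 ± 0.60, the lowest class I difference at -0.32 (SE 0.27).

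Among the remaining class I genes, RT1-S3 had means of 1.44 ± 0.61 in HF and 1.61 ± 0.30 in HFT, with HF 13 lowest at 0.22, and RT1-S2 (A_64_P057222) had means of 3.17 ± 0.40 and 3.29 ± 0.30. RT1-M6-1 (A_64_P003255) had means of 2.79 ± 0.35 and 2.86 ± 0.27. On these 3 HF 13 was again the lowest animal. RT1-M3-1, a counterpart of the mouse molecule that presents formylated peptides, had means of -1.31 ± 0.16 and -1.23 ± 0.25. RT1-N2 had means of -0.56 ± 0.18 and -0.62 ± 0.19, and RT1-N3 of -0.93 ± 0.19 and -1.04 ± 0.19. These last 3 were among the steadiest members, each with an SD below the median of all kept probes. RT1-T18 had 2 probes: A_64_P102807 had means of 1.94 ± 0.37 and 2.03 ± 0.26, and A_64_P064336 of -5.70 ± 0.17 and -5.91 ± 0.29. Probe A_64_P064336 had the smallest unadjusted limma p of all members, 0.0852, with a difference of -0.21 (SE 0.12, adjusted p of 1).

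The low class I levels of HF 13 were uncommon on the array. HF 13 was the lowest animal on 17 of 28 class I probes (60.7%), and on 5.21% of all kept probes. HF 11 was the highest on 13 of the 28 (46.4%), and on 3.38% of all. On 10 of 30344 probes HF 13 lay alone at the bottom, with a gap to the next animal of at least 1 unit and at least 40% of the range; for a given animal the median number of such probes was 4, and the range 0 to 133. Of those 10 probes, 6 were class I members: RT1-A1 (A_64_P032913), RT1-CE2 (A_44_P107372), RT1-CE3, RT1-CE4, RT1-CE15 and RT1-CE16, with gaps from 1.02 (RT1-A1) to 2.23 (RT1-CE3). The other 4 have no symbol here. The HF 13 probes were singled out after their values were seen.

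Over the 28 class I probes the median difference was 0.094, with 19 above 0 and 9 below and a range of -0.32 to 0.66; over all 21808 kept probes the median was -0.016 with 43.8% above 0. The class I direction rested on HF 13: without it the median was -0.0033 and 9 of the 28 differences changed sign. It was also below 0 without the 3 animals high for Lcn5 (-0.031) and with array weights (-0.028). Without the Lcn5 animals and the 3 urothelial animals it was -0.094, and 21 of the 28 differences changed sign. Within slides the class I median was 0.42, -0.50, 0.57 and -0.11 on slides 1 to 4, so 2 slides ran each way.

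In class II, RT1-Bb, the beta chain of the RT1-B molecule, held the widest spread. On probe A_44_P552452 HF ran from -8.76 through 0.33 to 1.21 and HFT from -0.01 through 0.37 to 1.66. HF 12 (-8.76) and HF 13 (-8.48) were not well above background, so their values are not measured levels. The lowest level well above background on their own arrays was -7.69 and -7.80. The next animal, HF 35 at -0.83, was 116-fold above the higher of these. That reference is not a limit, since Ciita at -7.02 in HF 13 was also not well above background. The other 14 animals spanned -0.83 to 1.66 and the groups overlapped.

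The second RT1-Bb probe, A_64_P043911, did not show it. It ran in HF from -0.64 through -0.11 to 1.57 and in HFT from -0.70 through 0.39 to 2.15. HF 12 at 0.85 and HF 13 at 0.42 lay above its HF median, and both animals were well above background there. The correlation of the 2 probes over the 16 animals, the values at background included, was -0.08. In contrast, the 2 probes of RT1-Db1 (r = 0.98), RT1-S2 (0.97) and RT1-A1 (0.97) followed each other.

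Separated levels were defined, with groups ignored, as a largest gap between neighbouring animals of at least 1 unit and 40% of the range, with at least 2 animals on each side and the upper side well above background. By this rule 480 of 30344 probes (1.58%) had separated levels, and 1 of the 55 member probes did, A_44_P552452. The members' share, 1.82%, was near that of the array. Of the 480, this was the only probe with HF 12 and HF 13 alone on the low side. That pair was named after the probe's values were seen, and other low pairs were not counted. Among the 480, 243 had HF 8, HFT 23 and HFT 28 alone high and 40 had HF 35, HFT 22 and HFT 24 alone high.

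Because both low animals were in HF, the same probe had a difference of 2.33 (SE 1.41, 95% interval -0.65 to 5.32, limma adjusted p of 1). Its size rested on values at background. It was 2.11 with both animals set to the lowest level well above background on their own arrays. It was 1.18 with normexp background correction and 1.56 when fitted on the log2 values of the authors' deposited table. Without HF 12 and HF 13 it was 0.073. By slide it was -0.020, -0.39, 9.55 and 0.20 on slides 1 to 4, and both low animals were on slide 3. The other RT1-Bb probe had a difference of 0.32 (SE 0.38).

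**Figure D3:**
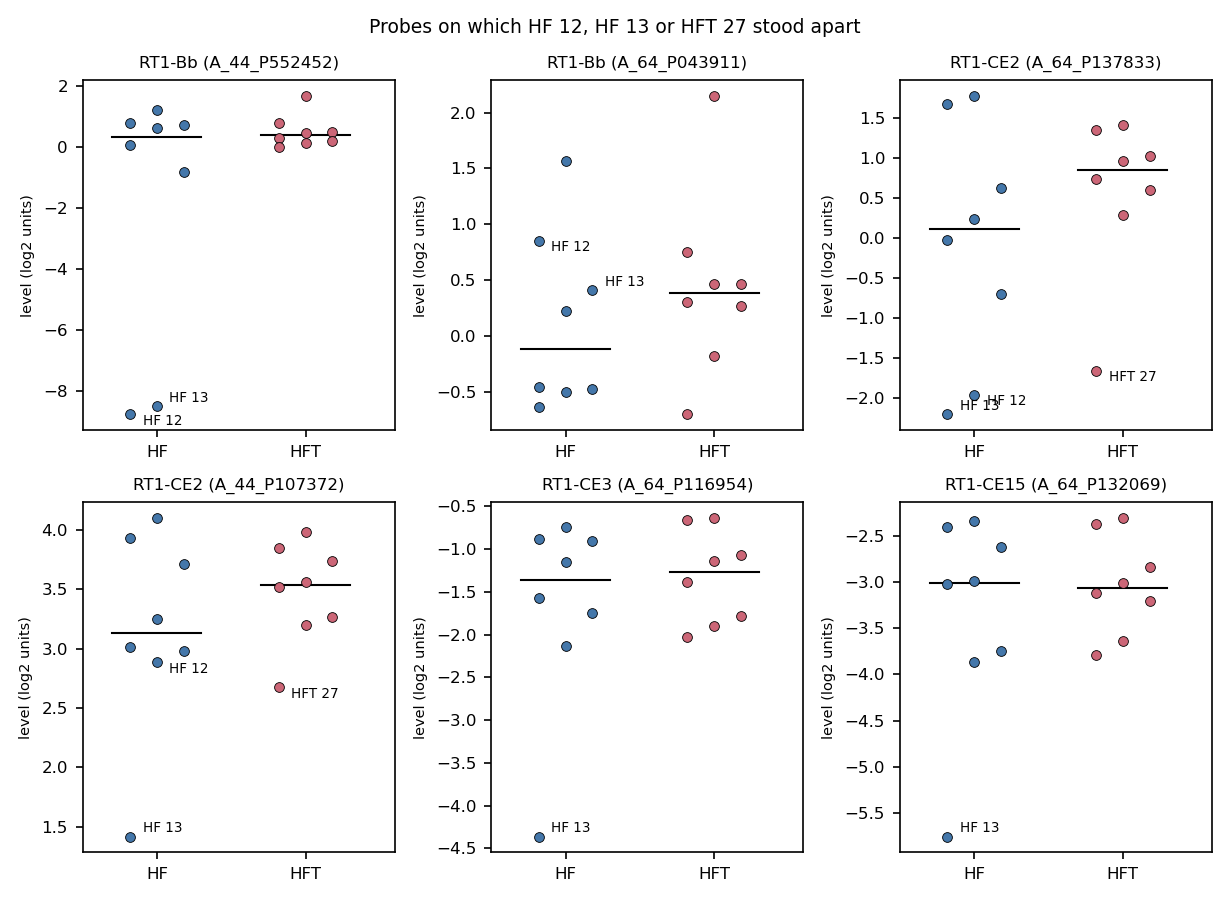
Level (log2 units) in each HF and HFT animal on both RT1-Bb probes, both RT1-CE2 probes, RT1-CE3 and RT1-CE15; points are animals, bars group medians, and the animals that stood apart are named. HF 12 and HF 13 are at -8.76 and -8.48 on 1 RT1-Bb probe and at 0.85 and 0.42 on the other.

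The other class II genes shared another pattern. Cd74, the invariant chain that escorts class II molecules, ran in HF from 1.16 through 1.78 to 3.70 and in HFT from 1.51 through 2.01 to 4.21. HF 8 (3.70) and HFT 28 (4.21) stood more than 1 unit above every other animal, with HFT 23 next at 2.68. RT1-Da, the alpha chain of RT1-D, ran in HF from -1.21 through -0.55 to 1.07 and in HFT from -0.82 through -0.30 to 1.54. The same animals, HF 8 and HFT 28, were at its top.

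RT1-Db1, the beta chain that pairs with it, ran on A_64_P130578 in HF from -0.32 through 0.21 to 1.58 and in HFT from 0.01 through 0.44 to 2.01. RT1-DMa, part of the DM editor that exchanges peptides on class II, ran in HF from -1.52 through -1.0 to -0.10 and in HFT from -1.04 through -0.84 to 0.54. RT1-DMb, its partner, ran in HF from -0.52 through -0.29 to 0.37 and in HFT from -0.50 through -0.26 to 0.56. HF 8 and HFT 28 were the high animals on each. RT1-DOb, of the DO molecule that restrains DM, had means of -4.98 ± 0.50 and -4.96 ± 0.34 and was highest in HF 8 (-4.17). Ciita, the coactivator that switches class II genes on, was well above background on 6 arrays, so that the other 10 values are not measured levels. Ciita ran in HF from -7.54 through -6.65 to -5.16 and in HFT from -7.13 through -6.67 to -4.97. Its highest animals were again HFT 28 and HF 8.

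HF 8 and HFT 28 were the 2 highest animals on all 10 kept class II probes, on 0 of 28 class I probes and 0 of 5 processing probes, and on 7.12% of all kept probes. The pair was named after the class II values were seen. The 10 probes are not independent, and RT1-Bb and RT1-Db1 have 2 each. The median class II deviation from the probe mean was 1.67 in HFT 28, 1.21 in HF 8, 0.45 in HFT 23 and -0.77 in HF 35. The 2 highest animals were thus in different groups.

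Other genes moved on the same arrays. Lcn5 was high in HF 8, HFT 28 and HFT 23, and Adipoq was lowest in HFT 28 (6.31) and HF 8 (6.56). Marker lists are given by the median, over their kept probes, of an animal's deviation from the probe mean. Of the 10 dendritic cell markers 8 had a probe and 5 were kept; Xcr1, Cd209a and Itgae were well above background on no array. The list ran from -0.28 to 0.34 in HF and from -0.14 to 0.12 in HFT, with HF 8 at 0.32 and HFT 28 at -0.0096. HF 8 and HFT 28 were the 2 highest animals on 1 of the 5, Clec9a, a receptor of cross-presenting dendritic cells (-4.04 and -4.33). Zbtb46, a transcription factor of classical dendritic cells, was highest in HF 8 (-5.21) but lowest in HFT 28 (-6.45).

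All 8 T cell markers had a probe and 6 were kept. The list ran from -0.45 to 0.15 in HF and from -0.22 to 0.35 in HFT, with HFT 28 at 0.27, HFT 23 at 0.12 and HF 8 at -0.14. Cd8a, a chain of the CD8 co-receptor, was well above background on only 6 arrays; HFT 28 (-2.48), HF 8 (-3.54) and HFT 23 (-3.90) were highest, and the other animals lay at -8.63 to -6.36. Cd8b, its partner chain, was highest in HFT 28 (-5.85) but lowest in HF 8 (-7.19). Their part in the class II levels was not tested.

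All 10 macrophage markers were kept. The list ran from -0.48 to 0.38 in HF and from -0.12 to 0.38 in HFT, with HF 8 at -0.29 and HFT 28 at -0.041. HF 8 and HFT 28 were the 2 highest animals on 1 of the 10, Lyz2, a lysozyme of macrophages and granulocytes (3.65 and 4.09). Of 8 B cell markers 6 had a probe and 3 were kept; Fcer2 and Blk were well above background on no array. The list ran from -0.83 to 1.11 in HF and from -0.68 to 0.65 in HFT, with HFT 28 at -0.68. Cd79b was lowest in HF 8 (-6.13). In bulk tissue, fewer cells of a type and less RNA per cell cannot be told apart.

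**Figure D4:**
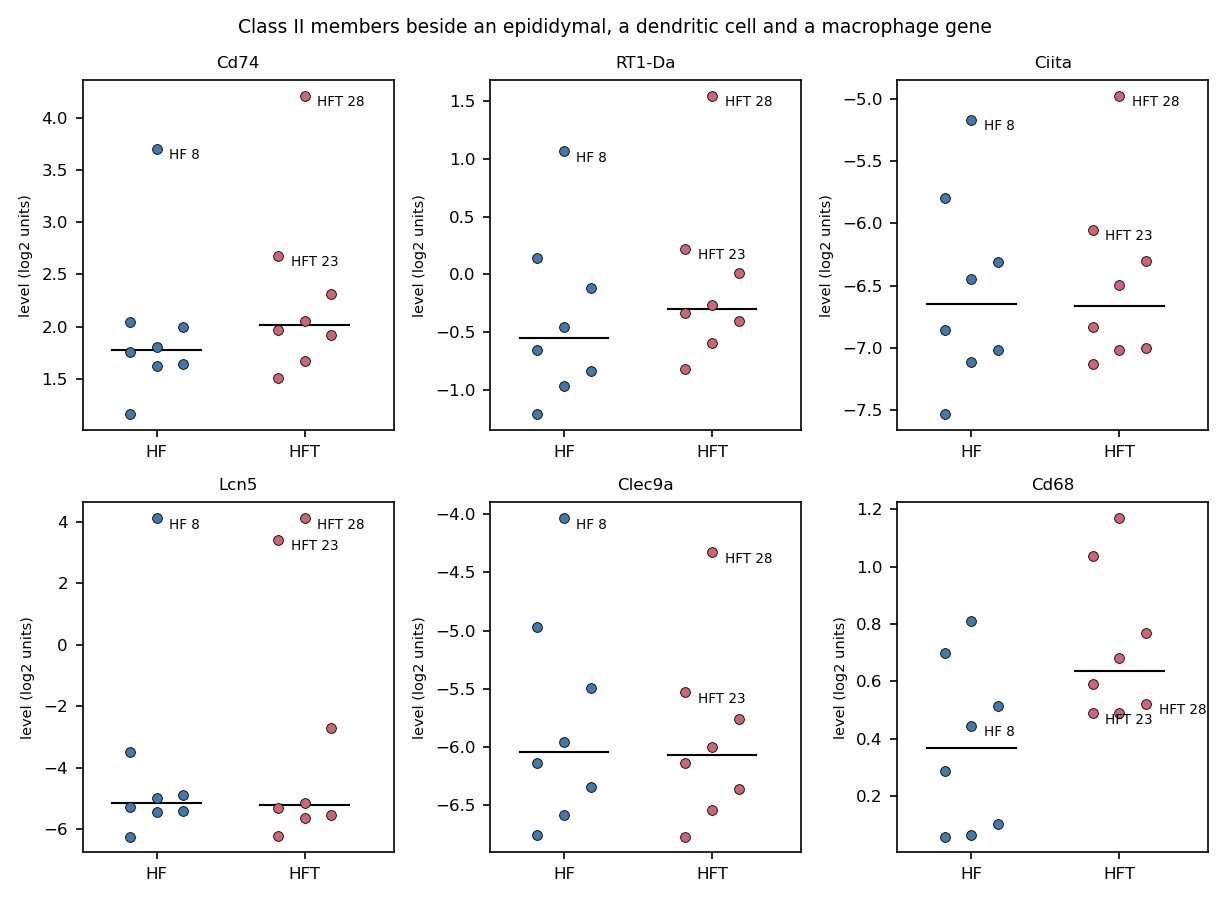
Level (log2 units) in each HF and HFT animal of Cd74, RT1-Da and Ciita (top) and of Lcn5, Clec9a and Cd68 (bottom); points are animals and bars group medians, with HF 8, HFT 23 and HFT 28 named. HF 8 and HFT 28 are the highest animals on all panels except Cd68.

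In all, 6 pairs of genes were compared across the 16 animals, with permutation tests of 100000 resamples and Benjamini-Hochberg adjustment over the pairs. Cd74 and RT1-Da had r = 0.97 and rho = 0.95 (permutation p = 1e-05 for each, the smallest the resamples can give; adjusted 6e-05). Without HF 8 and HFT 28, the animals farthest from the Cd74 median, r was 0.92 (permutation p = 1e-05), and over the 10 animals high for neither Lcn5 nor urothelial genes it was 0.88. Ciita and Cd74 had r = 0.90 and rho = 0.80, given without a p because 10 of the 16 Ciita values were not well above background. Over the 6 arrays on which Ciita was well above background, HF 8 and HFT 28 among them, r was 0.94. Over all animals except HF 8 and HFT 28 it was 0.73, and over the 10 animals above it was 0.44. These last values include Ciita values that were not well above background.

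Cd74 and Cd68, a macrophage gene, had r = 0.15 and rho = 0.36 (permutation p = 0.584 and 0.176, adjusted 0.584 and 0.176). Without HF 8 and HFT 28 r was 0.50 (permutation p = 0.0706), and over the 10 animals it was 0.71. Cd74 and Cd79b, a B cell receptor subunit, had r = -0.53 and rho = -0.50 (permutation p = 0.0309 and 0.0514, adjusted 0.0464 and 0.077). That relation rested on HF 8 and HFT 28: without them r was -0.27 (permutation p = 0.36), and over the 10 animals it was 0.12. With slide means removed the 4 values were 0.97, 0.89, 0.04 and -0.52 in the order given.

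All 10 class II differences were above 0, with a median of 0.31 and a range of 0.026 (RT1-DOb) to 2.33 (RT1-Bb), against the median of -0.016 over all probes. Next to RT1-Bb came RT1-Db1 (A_64_P134927) at 0.40 (SE 0.32) and RT1-DMa at 0.34 (SE 0.23), then Cd74 at 0.32 (SE 0.38) and RT1-Da at 0.30 (SE 0.34). The median was 0.058 without HFT 28 and 0.49 without HF 8, and 7 of 10 differences were above 0 without HFT 28. By slide, 0, 5, 10 and 9 of 10 class II differences were above 0 on slides 1 to 4, with medians of -0.53, 0.013, 0.99 and 0.56; slide 1 held HF 8 and slide 3 held HFT 28. Without the 3 animals high for Lcn5 the class II median was 0.19, and without these and the 3 urothelial animals it was 0.24.

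The 5 processing and loading genes had no common direction. Tap1, a subunit of the peptide transporter, ran in HF from -3.06 through -2.75 to -2.21 and in HFT from -2.86 through -2.61 to -2.40. Tap2, its partner, ran in HF from -1.92 through -0.96 to -0.17 and in HFT from -1.37 through -1.02 to 0.81. HFT 22 was far above the other HFT animals on Tap2 and within the common range on Tap1. Tapbp, tapasin, was the steadiest of the kept members, at -0.63 ± 0.15 in HF and -0.70 ± 0.19 in HFT.

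Psmb8, a catalytic subunit of the immunoproteasome, ran in HF from -0.54 through 0.18 to 0.69 and in HFT from -0.79 through 0.05 to 1.21. Psmb9, another, ran in HF from 1.12 through 1.30 to 1.94 and in HFT from 0.96 through 1.42 to 2.10. HFT 28 was the highest animal on both. Of the 5 differences 2 were above 0 and 3 below, with a median of -0.0054 and a range of -0.068 (Tapbp) to 0.19 (Tap2).

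Tap1 and its divergent neighbour Psmb9 had r = 0.58 and rho = 0.64 (permutation p = 0.018 and 0.00897, adjusted 0.036 and 0.0179). Without HF 9 and HF 11 r was 0.51 (permutation p = 0.0579), and over the 10 animals high for neither Lcn5 nor urothelial genes it was 0.75. Tap1 and Irf1, an interferon-induced activator, had r = 0.45 and rho = 0.40 (permutation p = 0.0775 and 0.125, adjusted 0.093 and 0.15). That value rested on HF 9 and HF 11, since without them r was 0.030 (permutation p = 0.919). Over the 10 animals, which include HF 9 and HF 11, r was 0.62. With slide means removed the pairs had r of 0.60 and 0.41.

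**Figure D5:**
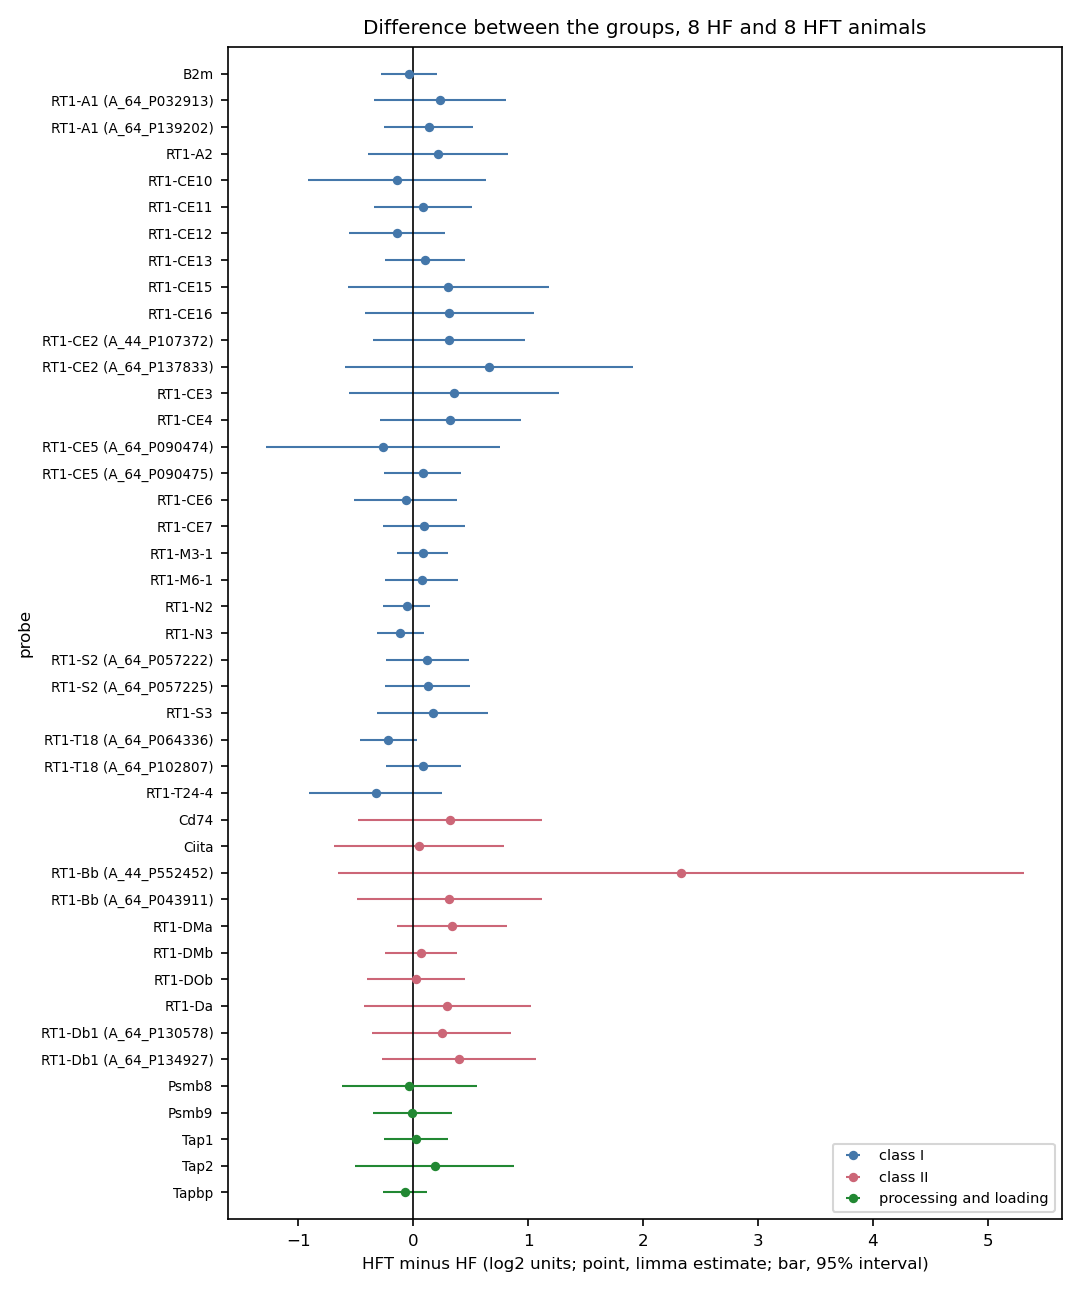
HFT minus HF (log2 units) for the 43 kept probes; points are limma estimates and bars their 95% intervals, coloured by class. Every interval includes 0, and the widest is that of RT1-Bb (A_44_P552452), -0.65 to 5.32.

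The wider pathway was read from a list of 38 other genes, among them regulators (Irf1, Irf8, Rfx5, Nfya), constitutive and activator proteasome subunits (Psmb5, Psme1), chaperones (Calr, Canx, Pdia3), endosomal proteases (Ctss, Ctsl, Lgmn), class I-like molecules (Mr1, Fcgrt) and costimulators (Cd40, Cd86). Of these 34 had a probe and 33 were tested: 19 differences were above 0 and 13 below, with a median of 0.013. None was called by limma, and 1 was at an unadjusted p under 0.05. That gene was Cd86, a costimulatory ligand for T cells, with a difference of 0.68 (SE 0.29, limma adjusted p of 1), and it was well above background on only 6 of 16 arrays. The macrophage markers had a median difference of 0.30, with 10 of 10 above 0, 3 at an unadjusted p under 0.05 and 0 called. The T cell markers had a median of 0.25, with 6 of 6 above 0 and 0 at an unadjusted p under 0.05. For dendritic cell markers the median was -0.074, with 2 above 0 and 3 below. Of these, 1 was at an unadjusted p under 0.05 (Clec10a, difference 0.30) and 0 were called. For B cell markers the median was 0.0094, with 2 above 0, 1 below and 0 at an unadjusted p under 0.05. The part of these lists in the class II differences was not tested.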

How the data were processed

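Per the file headers, each deposited spot intensity came from Agilent Feature Extraction 10.7.3.1, after subtraction of background and before any scaling between arrays; the marks for spots well above background, non-uniform or saturated come from the same software. A second table, deposited by the authors, holds log2 values, with a normalization not given in the sources used here. Each of its 16 columns followed its own array (r of 0.998 or more) and it served only as an alternative.

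Each array's 75th percentile over its spots other than controls was subtracted from log2 processed intensity. Non-uniform and outlying spots were left out, spots of a probe averaged, and a probe kept if well above background in 4 or more of a group's 8 arrays (21808 of 30367). Limma 3.58.1 (R 4.3.3; lmFit, eBayes, no covariate) compared HFT with HF, with Benjamini-Hochberg adjustment over all kept probes and a threshold of 0.05; a median over a class was not tested. Correlations used SciPy 1.17.1. The fit and the rule for separated levels were tested on simulated data.

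Symbols came from RefSeq accessions of the array annotation, matched to a rat gene table (GRCr8), which named 18005 probes. The array design is labelled rn4, so only promoter windows carry coordinates. The members, gene lists and tests were chosen with earlier results of these data known. The naming rule took every member gene, with values for the brightest probe of each kept gene, every probe with separated levels and every listed pathway gene at an unadjusted p under 0.05. Alternatives changed the slide block, background correction (normexp, offset 50, on median signals), scaling, values used, filter, arrays and animals.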

Additional observations from a re-analysis of the deposited data

Results flagged for a closer look

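Each kept member probe was examined in each group for an animal set apart from the other 7 by Dixon's criterion. Of 86 such groups 21 held one, where chance flags about 1 in 20, or 4.3 groups. The probes of a class share animals and in part sequence, so the 21 are not independent.

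HFT 28 was the high animal of its group on 7 class II probes: Cd74 (4.21), RT1-Bb A_44_P552452 (1.66), RT1-DMa (0.54), RT1-DMb (0.56), RT1-Da (1.54), RT1-Db1 A_64_P130578 (2.01) and RT1-Db1 A_64_P134927 (1.01). HF 8 was the high animal of its group on 4 of the same probes: Cd74 (3.70), RT1-DMb (0.37), RT1-Db1 A_64_P130578 (1.58) and RT1-Db1 A_64_P134927 (0.28).

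HF 13 was the low animal on 4 class I probes: RT1-CE15 (-5.75), RT1-CE16 (0.28), RT1-CE2 A_44_P107372 (1.42) and RT1-CE3 (-4.36). HFT 27 was the low animal on 3: RT1-A1 A_64_P139202 (4.58), RT1-A2 (1.08) and RT1-CE2 A_64_P137833 (-1.66). HF 9 was high for B2m (5.01) and low for RT1-CE12 (-1.47), and HFT 22 was high for Tap2 (0.81).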

How the results depend on the processing

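No member probe was called under any alternative run. The class II median stayed above 0 in each, from 0.058 to 0.49 when 1 animal was left out; the class I median ran from -0.0033 to 0.17 and the processing median from -0.069 to 0.072. Among alternatives chosen after the data were seen, leaving out the arrays high for Lcn5 called 1 probe of all (Acot5, no member), and leaving out those and the urothelial arrays turned r of Cd74 and Cd79b to 0.123; the causes were not tested. Members with separated levels numbered 2 when the gap could be a smaller share of the range (Cd74 added). That was 3.64% of the member probes, near the 3.63% of all probes. With 1 animal allowed on a side, which loosens the rule, members numbered 9 (16.4%, against 4.49% of all probes). Leaving out HF 12 and HF 13 gave medians of -0.029 for class I and 0.26 for class II. No paired analysis was possible because HF and HFT share no replicate number. Not run: naming by the files' own gene names, which the files do not hold, and the pairs with Flt3 and Nlrc5, which have no named probe. Normexp turned 2 class II differences below 0. Signal over background limits Ciita and the 12 probes not kept.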
